A study of Mus musculus with 4 samples.

Results

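The genes described here are 10 genes of the NF-kB pathway and of the receptors that feed it, measured in gastrocnemius muscle: the subunits Nfkb1, Nfkb2, Rela and Relb, the regulators Nfkbia, Bcl3 and Tnfaip3, and the receptors Tnfrsf12a, Tnfrsf1a and Il1r1. They were chosen by name, as the rows with these symbols among 23282 gene rows, and each symbol was found once. In CDF1 mice, the study crossed treadmill running at high intensity (E) with a tumor (T), for which cells of the mouse colorectal carcinoma line CT26 were injected into the tail vein. The 4 groups were normal control (no exercise, no tumor), normal exercise (exercise alone), cancer control (tumor alone) and cancer exercise (both). All samples carried the label of postnatal day 28, and no allele or drug is named for any group. The methods give that age for the purchase of the mice. They place the sacrifice at the end of the experiment, so the muscle was taken at a later age. There was 1 library per group. According to the results text a single representative mouse of each group was sequenced, while the design text counts 10 mice per group. Each value below therefore has no replicate, and no p-value is given. The tumor arose from injected cells that spread through the body, and the muscle itself was sampled as whole tissue.

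NF-kB is a family of dimeric transcription factors held in the cytoplasm by inhibitors of the IkB family until a receptor signal leads to the inhibitor's destruction. In the canonical arm, tumor necrosis factor and interleukin-1 receptors release dimers that hold Rela and the p50 product of Nfkb1. In the noncanonical arm, receptors such as Tnfrsf12a (Fn14, the TWEAK receptor) lead to processing of the Nfkb2 product p100 to p52, which pairs with Relb. The genes of Nfkbia, Tnfaip3, Bcl3, Nfkb2 and Relb are known targets of the factor as well as parts of its control, and in skeletal muscle the pathway is known for its activity during wasting.

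Because many of these genes are known NF-kB targets, their promoters were searched for the kappaB consensus, the 10-base motif that the factor binds, on both strands. The promoters were those of RefSeq on GRCm38.p6, each running from 250 bases before a transcription start to 50 after it, 300 bases in all. A match occurred in 8.46% of 32851 promoters and in at least 1 promoter of 9.55% of 27025 genes. Of the 10 genes, 8 were in the promoter table with 12 starts, and 5 of these 8 had a match in at least 1 of their promoters. Nfkb1 and Relb were not among them. The promoters of Nfkbia (chr12:55492598-55492897, minus strand), Nfkb2 (chr19:46304487-46304786, plus strand), Bcl3 (chr7:19822706-19823005, minus strand) and Tnfaip3 (chr10:19015361-19015660, minus strand) are shown because these genes were higher in the cancer control library and their promoters held a match. That of Tnfrsf12a (chr17:23677400-23677699, minus strand) is shown because this gene differed most and its promoter held no match. Rela was also higher in cancer control, but its promoter held no match and is not shown. Sequences run 5′ to 3′ on the strand of the gene, and capitals mark the matched bases.
Nfkbia: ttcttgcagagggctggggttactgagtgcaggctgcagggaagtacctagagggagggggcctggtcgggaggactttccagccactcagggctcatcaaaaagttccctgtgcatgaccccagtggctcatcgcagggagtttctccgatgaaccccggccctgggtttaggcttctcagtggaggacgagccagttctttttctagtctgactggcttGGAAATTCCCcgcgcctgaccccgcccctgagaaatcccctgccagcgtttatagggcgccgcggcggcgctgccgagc
Nfkb2: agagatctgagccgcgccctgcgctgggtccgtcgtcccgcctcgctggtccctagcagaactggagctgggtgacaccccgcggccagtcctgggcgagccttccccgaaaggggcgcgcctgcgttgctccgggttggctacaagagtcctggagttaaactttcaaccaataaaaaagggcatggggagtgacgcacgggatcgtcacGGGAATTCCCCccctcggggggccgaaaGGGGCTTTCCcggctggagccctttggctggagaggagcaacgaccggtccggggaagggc
Bcl3: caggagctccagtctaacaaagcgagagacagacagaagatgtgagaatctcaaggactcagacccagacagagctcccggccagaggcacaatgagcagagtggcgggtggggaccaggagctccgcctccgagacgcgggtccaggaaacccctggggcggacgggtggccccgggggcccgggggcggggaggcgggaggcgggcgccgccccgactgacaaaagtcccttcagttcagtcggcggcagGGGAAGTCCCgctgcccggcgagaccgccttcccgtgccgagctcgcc
Tnfaip3: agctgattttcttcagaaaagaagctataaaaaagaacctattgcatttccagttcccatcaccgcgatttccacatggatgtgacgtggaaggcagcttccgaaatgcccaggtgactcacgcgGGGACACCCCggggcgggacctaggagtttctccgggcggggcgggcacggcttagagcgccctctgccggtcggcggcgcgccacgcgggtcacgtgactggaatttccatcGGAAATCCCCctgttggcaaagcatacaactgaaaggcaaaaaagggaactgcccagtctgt
Tnfrsf12a: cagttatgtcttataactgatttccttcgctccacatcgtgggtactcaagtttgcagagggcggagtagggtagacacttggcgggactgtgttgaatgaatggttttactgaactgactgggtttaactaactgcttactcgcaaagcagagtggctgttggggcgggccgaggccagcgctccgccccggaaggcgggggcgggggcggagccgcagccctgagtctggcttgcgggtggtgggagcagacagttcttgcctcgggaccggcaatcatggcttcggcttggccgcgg

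Counted from the start site as position 0, the match of Nfkbia lay at -29 to -20 and that of Bcl3 at 2 to 11. The Nfkb2 promoter shown held 2 separate stretches, at -39 to -29, where 2 matches overlap, and at -11 to -2. The Tnfaip3 promoter shown held matches at -125 to -116 and at -12 to -3, whereas the promoter of its other start held none. The remaining 2 starts of Nfkb2 also had matches, but their windows overlap, and the only match of the third start is also a match of the second. The second start of Il1r1 had 1 match at -232 to -223. The windows of Rela, Tnfrsf12a and Tnfrsf1a held no match, which says only that these letters were absent from these windows. A match is a run of letters and not a measured binding site.

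**Figure D1:**
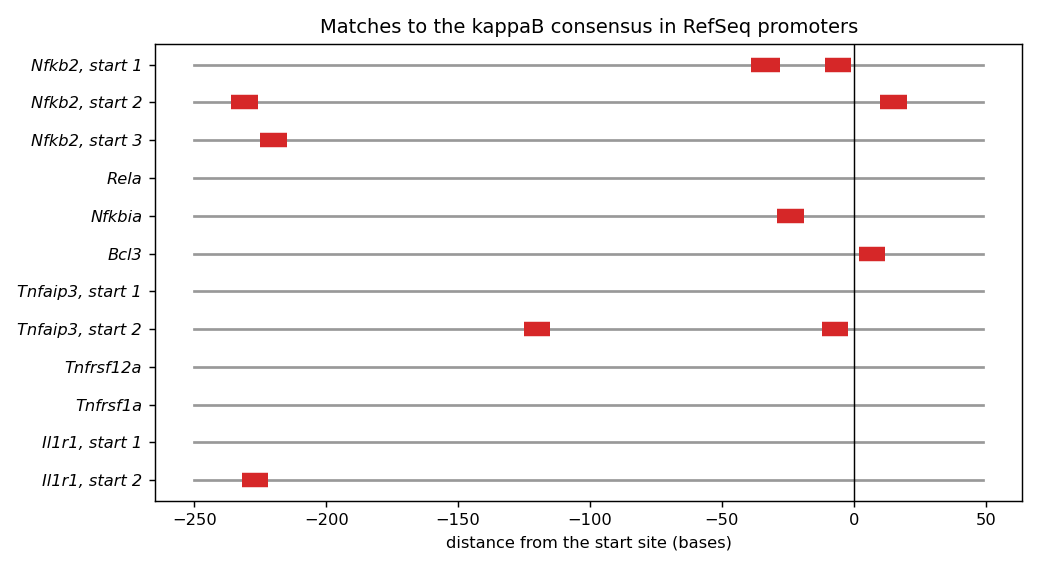
Positions of kappaB consensus matches (red) in the 12 RefSeq promoters of 8 of the genes, as distance in bases from each start site (vertical line). The matches of Nfkbia at -29 to -20 and of Tnfaip3 at -12 to -3 lie just before the start, and Rela, Tnfrsf12a and Tnfrsf1a have none.

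Expression was read by 3′ mRNA sequencing, in which reads come from the end of the transcript, so levels are compared between libraries for 1 gene and not between genes. Values are normalized read counts, taken back from the deposited log2(count + 1), and where 4 values follow each other without names their order is normal control and exercise, then cancer control and exercise. Reads rebuilt from these values totalled 10647447 to 13226030 per library, and the 10 genes had between 8 reads (Tnfaip3, cancer exercise) and 5988 reads (Nfkbia, cancer control). All 10 passed the minimum of 4 in at least 1 library. Differences are log2 differences of the deposited values, followed by a 95% interval that covers counting error only. It was computed from the reads by the Clopper-Pearson method and leaves out variation between animals, so a difference outside it is one between 2 libraries. In whole tissue, fewer cells of a type and less RNA per cell cannot be told apart. A gene is called higher or lower, or past the threshold, when the difference was at least 2-fold, the threshold of the study. With the minimum asked of only 1 of the 2 libraries, 3121 and 4437 genes were called for exercise without and with the tumor. These counts are larger than those the paper reports.

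Among the subunits, Nfkb2, Rela and Relb were highest in cancer control and Nfkb1 was not. Nfkb2, which encodes the p100 precursor of the noncanonical subunit p52 (chr19:46304320-46312385, plus strand), had 203 normalized reads for normal control, 152 for normal exercise, 859 for cancer control and 421 for cancer exercise. Both tumor libraries lay above both libraries without a tumor. The difference with the tumor was 2.07 (1.85 to 2.32) without exercise and 1.46 (1.21 to 1.73) with it, and exercise within the tumor-bearing pair gave -1.03 (-1.21 to -0.85). Exons of Psd, on the opposite strand, overlap those of Nfkb2 in the GENCODE annotation of GRCm38. Psd itself stayed between 23.5 and 28.2 normalized reads in the 4 libraries.

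Rela encodes p65, the subunit of the canonical dimer that activates transcription (chr19:5637483-5648130, plus strand). It had 312 normalized reads with neither exercise nor tumor, 386 with exercise alone, 843.5 with the tumor alone and 474 with both. The difference with the tumor was 1.43 (1.24 to 1.64) without exercise and 0.30 (0.11 to 0.49) with it, so only the first reached the threshold. Relb, the partner of p52 (chr7:19606217-19629438, minus strand), had 148, 169, 377 and 204 normalized reads in the same 4 libraries. Its differences with the tumor were 1.34 (1.06 to 1.64) without exercise and 0.27 (-0.02 to 0.56) with it. The profiles of Rela and Relb over the 4 libraries were the closest of any pair among the 10 genes, at a Euclidean distance of 0.11 between log2 values centred on each gene's mean.

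Nfkb1, which encodes the p105 precursor of p50 (chr3:135584655-135691547, minus strand), had 85.1 normalized reads for normal control, 132 for normal exercise, 78.2 for cancer control and 91.0 for cancer exercise. It was highest in normal exercise, above cancer exercise by 0.54 (0.15 to 0.94). Cancer exercise and normal control were not apart beyond counting error, nor were normal control and cancer control. The difference with the tumor was -0.12 (-0.60 to 0.35) without exercise and -0.54 (-0.94 to -0.15) with it. No difference of Nfkb1 reached 2-fold.

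The 3 regulators were all highest in cancer control. Nfkbia encodes IkB-alpha, the inhibitor that retains the canonical dimer in the cytoplasm (chr12:55489410-55492647, minus strand). It had 1481 normalized reads with neither exercise nor tumor, 1595 with exercise alone, 6413 with the tumor alone and 4362 with both. The tumor libraries stood 4.33-fold above their counterpart without exercise and 2.73-fold above it with exercise, with log2 differences of 2.11 (2.03 to 2.2) and 1.45 (1.37 to 1.53). Exercise among the tumor-bearing pair gave -0.56 (-0.61 to -0.50), which is outside counting error and short of 2-fold.

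Bcl3, an atypical IkB protein that acts in the nucleus with p50 and p52 (chr7:19808462-19822770, minus strand), had 25.6 normalized reads for normal control, 32.3 for normal exercise, 91.0 for cancer control and 66.0 for cancer exercise. Both tumor libraries were above both others, and the tumor libraries did not differ from each other beyond counting error (-0.46, -0.96 to 0.03). The difference with the tumor was 1.79 (1.17 to 2.55) without exercise. With exercise it was 1.01 (0.43 to 1.64), just past the threshold, and it fell short of it at 0.85 when reads were scaled to library totals, at 0.95 with a pseudocount of 4 and at 0.62 when reads were thinned to the smallest library. The antisense gene Gm16175 overlaps exons of Bcl3, and how the authors treated strand is not stated.

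Tnfaip3 encodes A20, a ubiquitin-editing enzyme that ends signaling from tumor necrosis factor and Toll-like receptors (chr10:19000910-19015657, minus strand). It had 17.1 normalized reads with neither exercise nor tumor, 28.3 with exercise alone, 68.4 with the tumor alone and 8.73 with both, from 16, 35, 64 and 8 reads. It was the gene in which the tumor libraries lay farthest apart, cancer control being the highest and cancer exercise the lowest of the 4. Normal control and cancer exercise were not apart beyond counting error (0.89, -0.33 to 2.41), nor were normal exercise and normal control. The difference with the tumor was 1.94 (1.20 to 2.90) without exercise and -1.59 (-3.03 to -0.58) with it, opposite in sign and past 2-fold both times. With exercise in tumor-bearing mice Tnfaip3 was lower by 7.13-fold (-2.83, -4.26 to -1.92), whereas exercise without a tumor gave 0.70 (-0.15 to 1.69). Summed markers of skin epithelium were also higher in cancer control, with 821 normalized reads against 116 in cancer exercise (602 against 33.9 without Krt10), and their part in the Tnfaip3 value was not tested.

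Of the receptors, Tnfrsf12a differed most and had the widest range of the 10 genes, 15.4-fold from its lowest to its highest library. It encodes Fn14, the receptor of the cytokine TWEAK, which is known to be induced in stressed or denervated muscle (chr17:23675445-23677468, minus strand). It had 20.3 normalized reads for normal control, 84.2 for normal exercise, 241 for cancer control and 326 for cancer exercise, and all 3 steps of this order were outside counting error. Exercise alone gave a 4.01-fold higher level (2.0, 1.35 to 2.85), the tumor alone an 11.4-fold higher level (3.51, 2.90 to 4.34), and the tumor with exercise a 3.84-fold higher level than exercise alone (1.94, 1.63 to 2.29). With the tumor present, exercise gave 0.44 (0.18 to 0.69). Hcfc1r1, on the opposite strand with exons within 500 bases of the 3′ end of Tnfrsf12a, followed the same order of libraries, with 1209, 2002, 2533 and 4075 normalized reads and a log2 difference of 1.07 for the tumor without exercise. Whether reads of this neighbour entered the Tnfrsf12a value was not tested.

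Tnfrsf1a, the widely expressed receptor of tumor necrosis factor (chr6:125349362-125362484, plus strand), had 438 normalized reads with neither exercise nor tumor, 503 with exercise alone, 657 with the tumor alone and 742 with both. Both tumor libraries were above both others, by 0.58 (0.40 to 0.77) without exercise and 0.56 (0.40 to 0.72) with it, short of 2-fold. Il1r1, the signaling receptor of interleukin-1 (chr1:40225080-40317257, plus strand), had 48.9, 76.2, 67.5 and 84.5 normalized reads in the same order. None of the 3 neighbouring pairs in its order of levels differed beyond counting error, and the largest of its differences in the 4 comparisons was exercise without a tumor at 0.63 (0.12 to 1.18). Over the 10 genes, 19 of the 30 neighbouring pairs of libraries were apart beyond counting error and 11 were not.

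**Figure D2:**
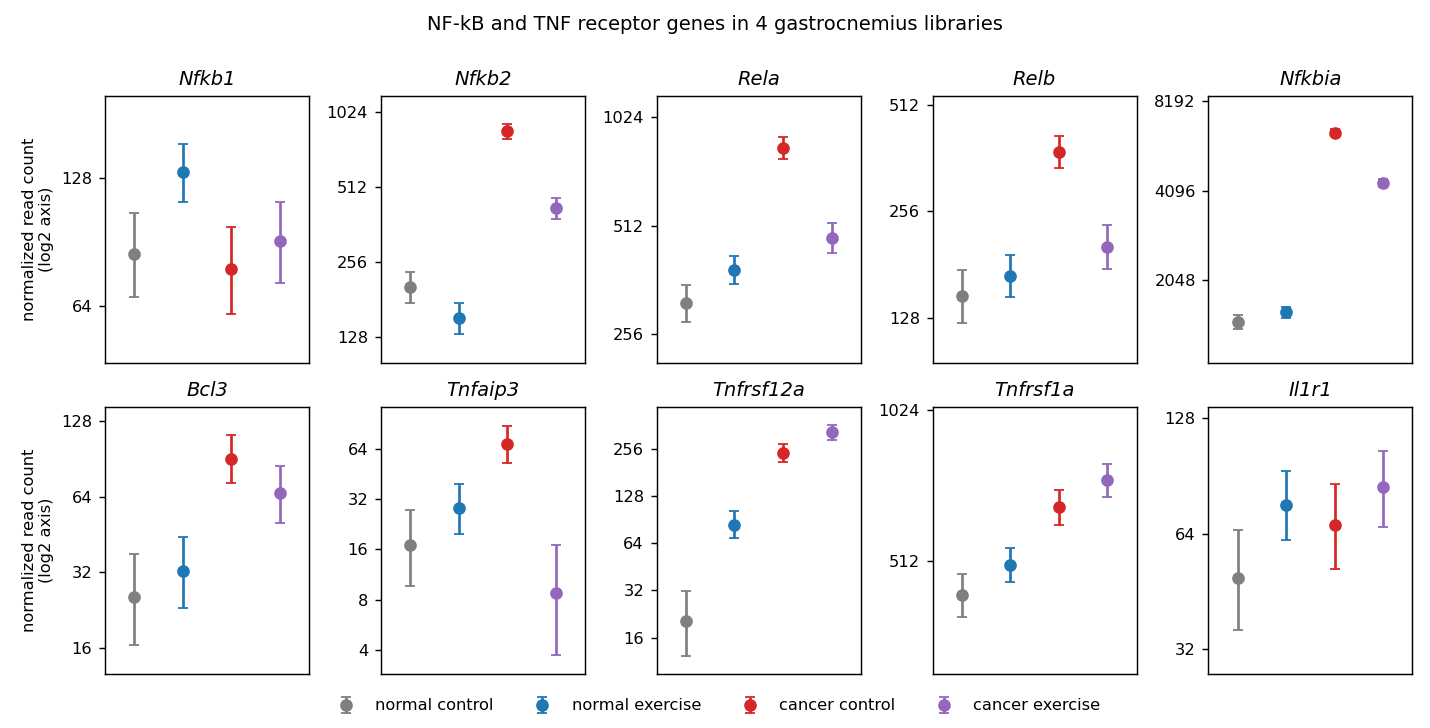
Normalized read count of each of the 10 genes in the 4 libraries, on log2 axes that differ between panels, with 95% Poisson intervals of the reads as bars. Nfkb2, Rela, Relb, Nfkbia, Bcl3 and Tnfaip3 peak in cancer control, Tnfrsf12a and Tnfrsf1a in cancer exercise.

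The effect of the tumor without exercise was asked by comparing cancer control with normal control. Of the 10 genes, 7 were higher and 0 lower: Tnfrsf12a, Nfkbia, Nfkb2, Tnfaip3, Bcl3, Rela and Relb. Over all 14818 genes that passed the minimum in this comparison, 20.9% were higher and 24.2% lower, 45.1% in all. The median log2 difference was 1.61 over the 10 genes and -0.04 over all genes. The 3 genes short of the threshold were Tnfrsf1a, Il1r1 and Nfkb1. Summed neutrophil markers were also higher in cancer control, with 2691 normalized reads against 81, and their part in these differences was not tested.

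With exercise in both groups, cancer exercise against normal exercise, 4 of the 10 genes were higher (Tnfrsf12a, Nfkb2, Nfkbia and Bcl3) and 1 lower (Tnfaip3). The share over 14470 genes was 13.9% higher and 16.3% lower, 30.3% in all, and the medians were 0.43 for the 10 genes and -0.03 for all. Those 4 genes were therefore at least 2-fold higher with the tumor at both exercise states, as 6.65% of 15485 genes were. Both tumor libraries exceeded both libraries without a tumor in 7 of the 10 genes (Nfkb2, Rela, Relb, Nfkbia, Bcl3, Tnfrsf12a and Tnfrsf1a), against 26.7% of the 15485 genes, and in 0 of the 10 were both below, against 26.9%. For Relb, cancer exercise and normal exercise were not apart beyond counting error (0.27, -0.02 to 0.56). The same difference for Rela was 0.30, and 0.10 with reads thinned to the smallest library.

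Exercise without a tumor, normal exercise against normal control, left 9 of the 10 genes within 2-fold. Tnfrsf12a was higher and 0 genes were lower, where 9.44% of 14518 genes were higher and 12.1% lower, 21.5% in all. The intervals of Relb, Bcl3 and Tnfaip3 held 0. Nfkb2 was the one gene with a negative difference (-0.41, -0.71 to -0.12). The median was 0.32 over the 10 genes and -0.01 over all genes.

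Exercise with the tumor, cancer exercise against cancer control, gave 0 higher and 2 lower genes, Tnfaip3 and Nfkb2, where 15.6% of 14491 genes were higher and 15.1% lower, 30.6% in all. Rela (-0.83, -1.0 to -0.66) and Relb (-0.89, -1.15 to -0.63) were below their cancer control level by less than 2-fold. Positive values were found for Tnfrsf12a, Il1r1, Nfkb1 and Tnfrsf1a, between 0.18 and 0.44. The intervals of Il1r1, Nfkb1 and Bcl3 held 0. The median was -0.51 over the 10 genes and 0.01 over all genes. The comparisons share libraries. Normal control is the reference of both the exercise difference without the tumor and the tumor difference without exercise, and cancer control enters the tumor difference and the exercise difference with opposite signs.

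**Figure D3:**
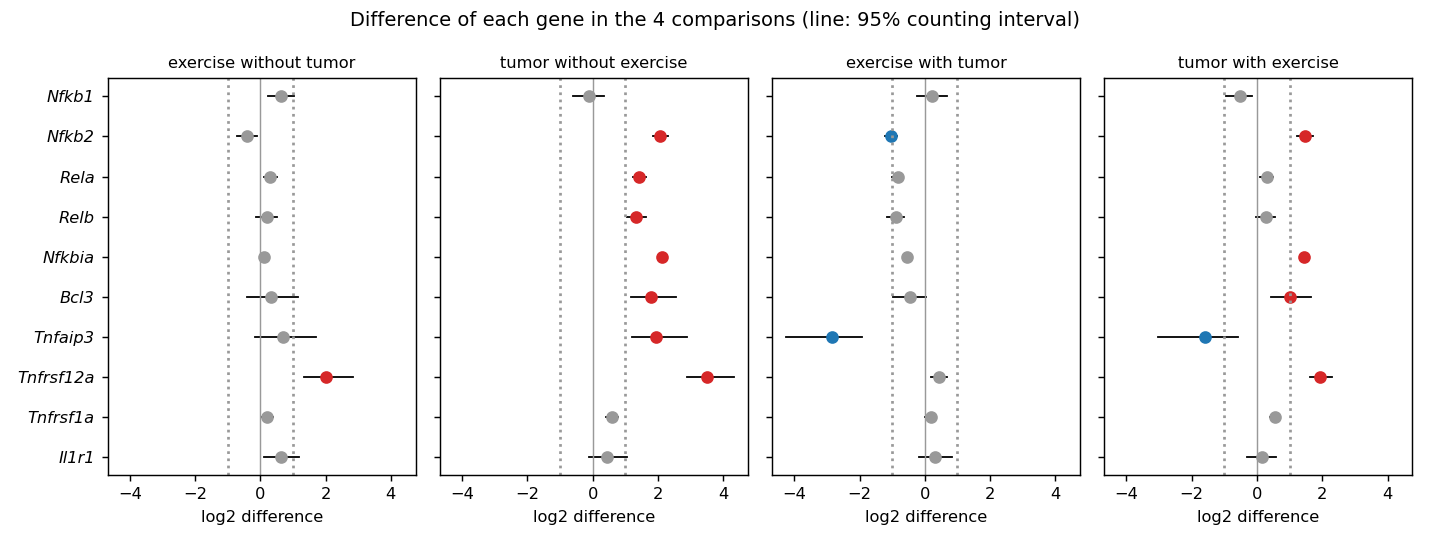
Log2 difference of each of the 10 genes in the 4 comparisons, with 95% counting intervals as lines; dotted lines mark 2-fold, red points are called higher and blue points lower. The tumor without exercise has 7 red points, exercise without the tumor has 1, and exercise with the tumor has 2 blue points.

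The crossed design also gives, for each gene, the exercise difference with the tumor minus that without it. This value was negative in all 10 genes, from -0.02 for Tnfrsf1a to -3.54 for Tnfaip3, with Tnfrsf12a at -1.57, Rela at -1.14 and Relb at -1.07. It was negative in 49.0% of the 15485 genes. The median was -0.72 over the 10 genes, which is about the lower quartile of all genes (-0.72), whose median was 0.02. No counting interval was computed for this value. For Nfkb1, Il1r1, Relb, Bcl3 and Tnfaip3, an exercise difference that enters it had an interval that held 0. Cancer control enters this value with a negative sign, and it was the highest library in 6 of the 10 genes, against 31.6% of all. A difference of at least 2-fold in opposite directions with exercise, without and with the tumor, was found in 0 of the 10 genes and in 4.99% of 13524 genes. Opposite signs of any size were found in 5 of the 10 genes and in 51.3% of 15485, so that share is near the background. In all 5 the sign was positive without the tumor and negative with it, which held for 23.2% of all genes.

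**Figure D4:**
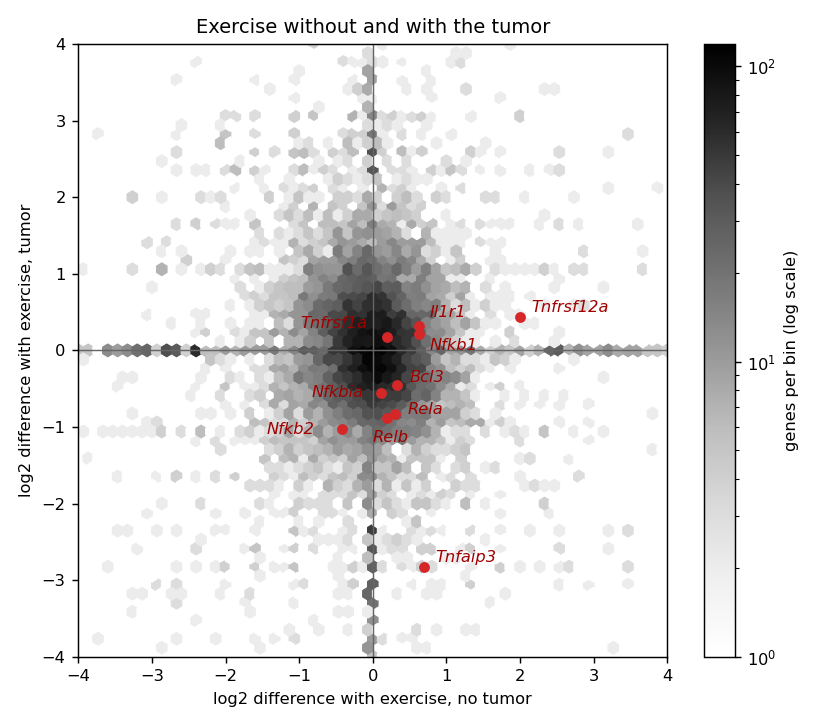
Log2 difference with exercise in mice without the tumor (horizontal) and with it (vertical), with all genes as grey bins on a log colour scale and the 10 genes in red; 385 of 15485 genes fall outside the axes. Tnfrsf12a lies far right (2.0, 0.44) and Tnfaip3 far below (0.70, -2.83), and the lines of bins on the axes hold genes with no reads in a pair of libraries.

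The other genes of the pathway were grouped in 7 lists, which were drawn up with earlier results of these data known. Over all genes, 20.9% were higher and 24.2% lower with the tumor without exercise, and 15.6% and 15.1% with exercise in tumor-bearing mice. In the list of other NF-kB subunits and inhibitors, 7 of 11 genes were higher and 1 lower with the tumor without exercise. The median was 1.11. The lower gene was Rel, the only subunit in this list, at -1.21 from few reads (6 without and 2 with the tumor). The higher genes were Nfkbib and Nfkbiz, of the IkB family, and Tnip2, Cyld, Otulin, Tax1bp1 and Itch, which encode neither subunits nor IkB proteins. Nfkbib, encoding IkB-beta, had 832 normalized reads for normal control, 1714 for normal exercise, 8527 for cancer control and 4075 for cancer exercise, a difference with the tumor of 3.36 (3.25 to 3.47). It peaked in the same library as Nfkbia, and exons of Ccer2, on the opposite strand, lie within 500 bases of its 3′ end. Otulin, a deubiquitinase of linear ubiquitin chains, gave 2.18 (1.95 to 2.43) and Tnip2, an A20-binding protein, gave 2.2 (1.81 to 2.65). For exercise with the tumor, 1 gene of this list was higher and 3 were lower, with a median of -0.54.

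Among 12 genes of the IKK complex and its upstream kinases, 3 were higher and 1 lower with the tumor without exercise, with a median of 0.22, and 0 were higher and 3 lower with exercise in tumor-bearing mice. Map3k8 (Tpl2), a kinase bound by the p105 product of Nfkb1, had 10.7 normalized reads with neither exercise nor tumor, 7.13 with exercise alone, 154 with the tumor alone and 40.1 with both, and its difference with the tumor was 3.73 (2.94 to 4.95). Tbk1, an IKK-related kinase, gave 1.45 (1.0 to 1.96), and Ikbke gave -1.25 from 11 and 4 reads, with an interval that held 0 (-3.56 to 0.31). Of 15 adaptors of the receptors, 2 were higher and 0 lower, with a median of -0.01. They were Birc3 (cIAP2) at 1.87 (1.39 to 2.44) and Traf6 at 1.70 (1.32 to 2.13), and Ripk1 was at 0.98 (0.55 to 1.44). Birc3 and Traf6 were also lower in cancer exercise than in cancer control, by -1.20 and -1.31.

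Of the other receptors of the family, 6 of 17 were higher and 4 lower with the tumor without exercise, with a median of 0.46, and 1 of 16 was higher and 7 lower with exercise in tumor-bearing mice. Tnfrsf9 (4-1BB), a costimulatory receptor, had 0 reads for normal control, 1 for normal exercise, 30 for cancer control and 0 for cancer exercise. Set against a floor of 3 reads per library, it was at least 10.1-fold higher in cancer control than in normal control and at least 9.89-fold lower in cancer exercise. Tnfrsf23, a decoy receptor of TRAIL, had 34.1, 90.0, 252.5 and 43.4 normalized reads, and Tnfrsf4 (OX40) had 4.30, 12.9, 34.2 and 14.1. All 3 were highest in cancer control.

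Most ligand genes that passed the minimum were lower in cancer control, some of them from few reads. Of these 7 genes, 0 were higher and 6 lower in cancer control than in normal control. The median was -1.80, or -1.64 when a library without reads was set to the floor. Among the 6, Lta was called lower from 0 against 4 reads, and its interval held 0 (upper limit 0.61). Ltb was called lower from 1 against 6 reads, and the median of -1.80 is its value. Tnfsf10 (TRAIL) had 88.2 normalized reads with neither exercise nor tumor, 92.6 with exercise alone, 10.8 with the tumor alone and 18.5 with both, Eda gave -2.05 (-3.24 to -1.18) and Tnfsf13b (BAFF) gave -1.64 (-2.73 to -0.79). Tnfsf12, which encodes TWEAK, the ligand of Tnfrsf12a, was looked up after its values were seen. It had 308, 353, 106 and 97.6 normalized reads, so both tumor libraries were below both others while Tnfrsf12a was above, with differences of -1.53 (-1.88 to -1.21) without exercise and -1.84 (-2.2 to -1.52) with it. Tnf itself, also looked up afterwards, had 3, 5, 0 and 1 reads, too few for a difference to be detectable at this depth.

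In the interleukin-1 and Toll-like receptor arm, 7 of 20 genes were higher and 4 lower with the tumor without exercise, with a median of 0.56. Il1b, the cytokine bound by Il1r1, had 0 reads for normal control, 21 for normal exercise, 54 for cancer control and 5 for cancer exercise, which is at least 18.1-fold higher in cancer control than in normal control. Il18rap, a subunit of the interleukin-18 receptor, had 2, 0, 33 and 14 reads, and Il18 itself had 103, 52.7, 9.70 and 12 normalized reads, a difference with the tumor of -3.28 (-4.59 to -2.44). Il18r1, the other receptor chain, named after its values were seen, had 15, 13, 0 and 0 reads. Il18rap was thus higher with the tumor, while Il18r1 and Il18 were lower.

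Of 25 other known NF-kB targets, 11 were higher and 1 lower with the tumor without exercise, with a median of 0.86, and with exercise in tumor-bearing mice 2 of 24 were higher and 8 lower, with a median of -0.34. Junb, a subunit of the AP-1 factor, had 124.5 normalized reads with neither exercise nor tumor, 154 with exercise alone, 3742 with the tumor alone and 681 with both, a difference with the tumor of 4.90 (4.64 to 5.19). Exons of Prdx2, on the opposite strand, lie within 500 bases of its 3′ end. Plaur, the urokinase receptor, had 0, 0, 28 and 7 reads and was at least 9.40-fold higher in cancer control than in normal control, and Myc had 1, 4, 35 and 41 reads. Exercise in tumor-bearing mice gave 0.24 (-0.44 to 0.94) for Myc and -2.46 for Junb.

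With exercise without the tumor, 2 of 12 subunits and inhibitors, 0 of 12 kinases, 0 of 15 adaptors, 2 of 16 receptors, 1 of 9 ligands, 3 of 18 genes of the interleukin-1 and Toll-like arm and 1 of 23 targets were higher, and 1, 1, 2, 4, 2, 1 and 3 were lower in the same order of lists. With the tumor in exercised mice, 3 of 12, 3 of 12, 2 of 15, 4 of 16, 0 of 7, 4 of 20 and 8 of 24 were higher, and 1, 2, 1, 3, 4, 5 and 2 were lower. Over all genes, 9.44% were higher and 12.1% lower in the first of these 2 comparisons, and 13.9% and 16.3% in the second. For the ligands, 0 higher of 7 is near that share. The targets had the most higher genes and were also the longest list. With exercise in tumor-bearing mice, the lists not yet given had 3 higher and 4 lower of 15 adaptors, 0 and 0 of 5 ligands, and 2 higher and 4 lower of 19 genes of the interleukin-1 and Toll-like arm.

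**Figure D5:**
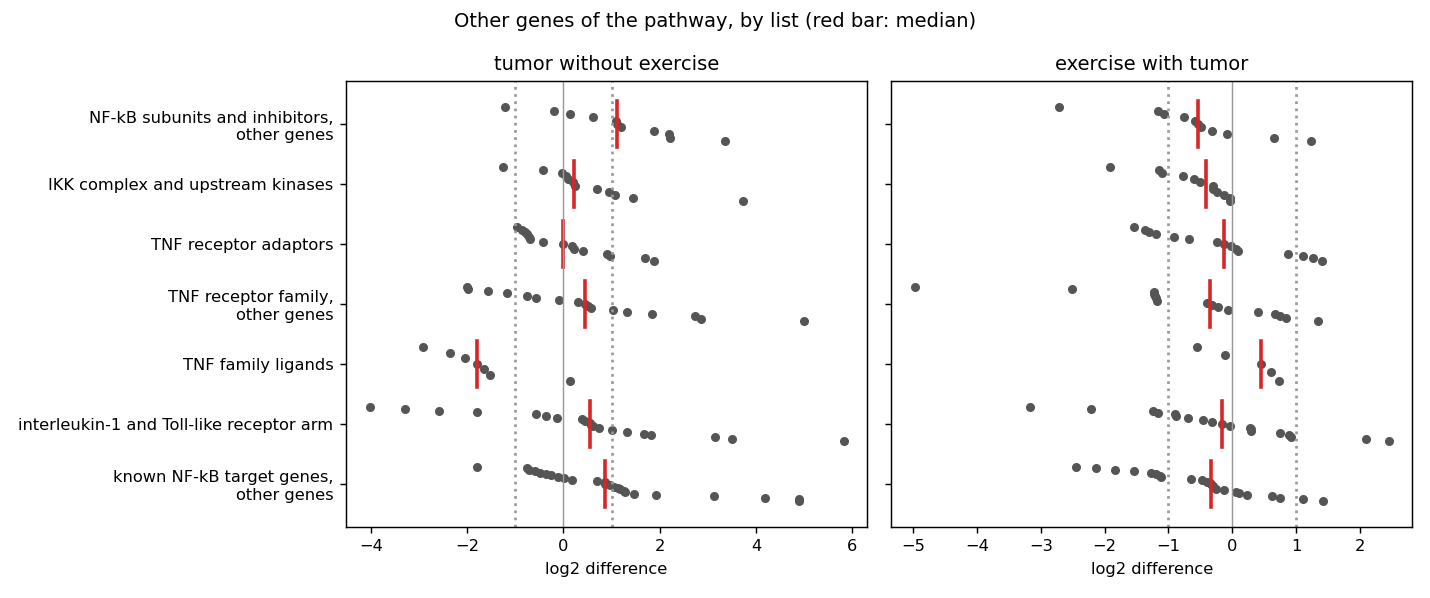
Log2 difference of each gene in the 7 pathway lists with the tumor without exercise (left) and with exercise in tumor-bearing mice (right); points are genes, red bars medians and dotted lines 2-fold. The list medians of NF-kB subunits and inhibitors (1.11) and of known targets (0.86) lie right of 0 on the left panel, and that of the ligands (-1.80) lies left.

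Genes with the profile most like each of the 3 widest-ranging genes were sought among 12055 genes, by the Euclidean distance of centred log2 values over the 4 libraries. Nearest to Tnfrsf12a were Csf2rb (0.34), 2810403D21Rik (0.41) and Npas2 (0.44), and no other gene lay within 0.5. In normal control 2810403D21Rik had only 2.18 normalized reads and Npas2 only 1.11, so their likeness rests partly on very low counts. Csf2rb, the shared receptor chain of several cytokines, had 22.4, 100.4, 288 and 290.2 normalized reads, but its near-identical copy Csf2rb2 could share its reads. Nearest to Tnfaip3 were Snhg17 (0.21), Cdk5r1 (0.24) and Dyrk2 (0.33), with 10 genes within 0.5. Among the genes nearest to Nfkb2 were Sema5a (0.11) and Nub1 (0.13), with 79 genes within 0.5. With 4 libraries these distances are descriptions of these samples.

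The tissue was checked by marker lists. The 10 muscle fibre markers were present in every library, as the labels say, and summed to 1560581, 1243750, 761543 and 876330 normalized reads. In cancer control 5 of them were lower and 1 higher than in normal control, with a median log2 difference of -1.08, in the library where 7 of the NF-kB and receptor genes were higher. Sums of neutrophil and macrophage markers were higher in both tumor libraries than in both others. The 9 neutrophil markers found summed to 81 normalized reads for normal control, 161 for normal exercise, 2691 for cancer control and 1994 for cancer exercise, led by S100a8 and S100a9, and 7 of 8 were higher in cancer control than in normal control. Without S100a8 the sums were 64.1, 89.4, 637 and 1035. Csf3r, a defining neutrophil receptor, had 12 reads in cancer exercise and 0 in the other 3 libraries. The 10 macrophage markers summed to 4425, 4314, 7546 and 7089, and 4 of them were higher and 0 lower in cancer control, while Adgre1 lay between 62.8 and 88.4 in all libraries. Their median log2 difference for the tumor without exercise was only 0.205. The 10 lymphocyte markers summed to between 14 and 67, the 10 endothelial markers to between 4358 and 5778 and the 6 satellite cell markers to between 464 and 1560. Markers of gut epithelium, the origin of the injected line, summed to 32, 31, 236 and 103, with 3 of 5 higher and 1 lower in cancer control than in normal control. Krt20 carried most of this sum, and the other 7 markers summed to 31.8, 30.7, 47.0 and 46.6. Epcam, Cdh17 and Cdx2, which are defining markers, had 0 reads in both tumor libraries.

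The 8 skin epithelium markers summed to 233 normalized reads with neither exercise nor tumor, 207 with exercise alone, 821 with the tumor alone and 116 with both. In cancer control 6 of 8 were higher than in normal control, and in cancer exercise 7 of 8 were lower than in cancer control. Krt10 alone set the low sum in cancer exercise, and without it the other 7 markers summed to 40.6, 15.9, 602 and 33.9. Krt5, a keratin of the basal layer, had 20 reads in cancer control and none elsewhere. Red cell markers summed to 51517 in normal exercise and 504575 in cancer exercise, and lay between these in both controls. Fat cell markers summed to 16188, 5936, 4596 and 10315, and fibroblast markers were lowest in cancer control (48035, against 107133 in normal control). The part of these cells in the differences of the other 9 genes, and of the genes in the pathway lists, was not tested either.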

How the data were processed

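Gastrocnemius muscle of 4 groups was sequenced with the QuantSeq 3′ kit, 1 library per group, and groups were taken from the sample titles. According to the methods, the authors used Bowtie2 for alignment, Bedtools coverage for counts per gene and edgeR for quantile normalization, and the submitters' processing notes name mm10. Strand and duplicate handling and the annotation are not given in the sources used here. The authors deposited log2(normalized read count + 1) of 23282 gene rows. Whole reads were rebuilt by modelling the quantile adjustment (dispersion 0.339), which tied 100% of the values to a whole number of reads within 0.0006. The rebuilding was tested on simulated data.

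Differences are those of the deposited log2 values, so with a pseudocount of 1, and they understate differences at low counts. A gene was called at 2-fold or more with a normalized count of at least 4 in 1 of the 2 libraries. With 1 library per group no test was run. Intervals are 95% Clopper-Pearson (differences) or Poisson (levels) and cover counting error only, since no molecular identifiers are described. A library without reads was set to 3 reads for lower bounds.

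All 10 genes were named, and of each of the 7 pathway lists the 3 genes with the largest difference for the tumor without exercise among those with a count of at least 16 in 1 library. For the 3 genes of widest range, the 3 nearest profiles were named among genes with a mean of at least 16. For Nfkb2, 1 of these is not reported here. The 10 genes, the lists and the comparisons were chosen with earlier results of these data known. Positions are from the GENCODE annotation of GRCm38, the assembly mm10 names. Python 3.11.15, numpy 2.4.6, pandas 2.3.3, scipy 1.17.1 and matplotlib 3.10.9 were used. The 11 alternatives (other scalings, pseudocounts, minima, fold thresholds and depth) are given in the closing section.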

Additional observations from a re-analysis of the deposited data

Results flagged for a closer look

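In 5 genes the libraries moved one way with exercise without the tumor and the opposite way with it, and the difference between these 2 effects was not tested, because each rests on 1 pair of libraries. Opposite signs were found in 51.3% of all genes, so 5 of 10 is near the background. The exercise difference with the tumor minus that without it was -1.14 for Rela (0.31 without the tumor and -0.83 with it), -1.07 for Relb (0.19 and -0.89), -0.66 for Nfkbia (0.11 and -0.56), -0.78 for Bcl3 (0.33 and -0.46) and -3.54 for Tnfaip3 (0.70 and -2.83). For Relb, Bcl3 and Tnfaip3 the interval of the difference without the tumor held 0, and for Bcl3 that with the tumor did as well. In none of the 5 were both differences at least 2-fold. Tnfaip3 rests on 8 reads in cancer exercise.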

How the results depend on the processing

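With no replicates, counting error is the only error these intervals hold, and it is wide where a library has few reads, as for Tnfaip3 (8 reads in cancer exercise), Tnfrsf12a (19 in normal control) and Bcl3 (24 in normal control). At a threshold of 1.5-fold, 4 genes were called for exercise without the tumor in place of 1, and 4 for exercise with the tumor in place of 2. At 4-fold the counts were 3 in place of 7 for the tumor without exercise, 1 in place of 2 for exercise with the tumor and 0 in place of 5 for the tumor with exercise. With reads thinned to the smallest library, 2 genes were called for exercise without the tumor, Tnfaip3 (1.05) joining Tnfrsf12a. The other settings kept these counts within 1.5 times of the deposited values, and the number of genes whose tumor libraries lay above both others was 7 under the 4 settings tried for it, which were chosen after seeing the data. Scaling to library totals moved the median of all genes by 0.16 for exercise without the tumor and by -0.15 for the tumor with exercise. At a minimum of 16 a smaller share of all genes was called. It was 18.7% higher and 21.5% lower for the tumor without exercise, and 12.4% and 11.4% for exercise with the tumor. Of 290 values of single genes, 282 moved by less than their counting interval, 8 moved by more (7 of Nfkbia, 1 of Rela) and 0 of these changed sign. Among the 282, 2 changed sign, both of Il1r1 for the tumor with exercise, to -0.01 with library totals and -0.06 with thinned reads. Tnfrsf12a kept its direction in each comparison under each of these settings. No paired analysis was possible because each group has 1 library and the labels give no replicate numbers.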

Other observations

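Among genes in the RefSeq promoter table, the kappaB consensus was compared with the measured differences over the whole table. With the tumor without exercise, 22.8% of the 1376 genes with a match in a promoter were higher and 23.5% lower, with a median log2 difference of -0.01, and 20.4% of the 9723 genes without a match were higher and 23.8% lower, with a median of -0.03. With exercise in tumor-bearing mice, 15.6% of genes with a match and 15.2% of those without were higher, and 14.9% and 14.5% were lower. Of 20 known NF-kB target genes in the table, 7 had a match: Bcl2l1, Csf1, Ier3, Il6, Irf1, Sod2 and Vegfa. Bcl2l1, an inhibitor of apoptosis, had 259.5 normalized reads for normal control, 174 for normal exercise, 2264 for cancer control and 776 for cancer exercise, whereas Sod2, the mitochondrial superoxide dismutase, had 3516, 3354, 2083 and 3204. These genes were singled out after their values were seen. Fas, a death receptor of the same family as Tnfrsf1a and also singled out afterwards, had 57.5, 23.3, 208 and 91.0 normalized reads and was higher with the tumor at both exercise states, by 1.84 (1.41 to 2.32) and 1.92 (1.33 to 2.61).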
